A study of Mus musculus with 96 samples.

Results

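Collagens are trimeric extracellular matrix proteins whose α chains wind into a triple helix. This account covers the 41 mouse collagen chain genes, picked by symbol (Col, a type number, the letter a and a chain number) out of 21711 gene rows in a table of single-cell read counts. Their reads were followed through mouse embryonic fibroblasts (MEFs), mouse embryonic stem cells (ES cells) and empty wells. The plate held 44 MEF wells, 48 wells of ES cells of the R1 line and 4 negative control wells. MEFs, connective tissue cells of the embryo, were grown in DMEM with 10% FBS, penicillin/streptomycin, Glutamax and 0.05 mM 2-mercaptoethanol, and ES cells, pluripotent cells of the early embryo, followed an earlier published culture method that the labels do not spell out. No agent or mutation is named for either type. For MEF wells the labels list R1 too as the line of origin, at odds with the cell type they give, and they name no separate cultures, so each type counts as 1 culture and no p-value was computed.

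Fibrillar collagens form the ropes of connective tissue, with types I, III, V and XI mixed in the same fibrils. Type IV collagens form the sheet under epithelia and around vessels, type VI forms beaded filaments, and fibril-associated collagens (FACITs) sit on the surface of fibrils. Fibroblasts are a main source of collagen in the body. The chains are hydroxylated and folded in the endoplasmic reticulum, clipped after secretion and then crosslinked.

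All reads mark the 5′ end of a transcript and keep its strand, per the labels. Counts are given as reads per 1e6 gene reads (CPM), pooled over the cells of a type. MEF wells held a median of 851801 gene reads (63938 to 1883709), against 161206 (13576 to 703423) in the 45 kept ES cell wells, those of 10000 gene reads or more. The negative controls held 236 to 4662. All of the plate was 1 library, and each cell type filled its own columns, so plate side and cell type cannot be told apart. ES cell replicates 4, 7, 8 and 30 had profiles that correlated more with the MEF mean than with the ES cell mean. Some results are given with and without them, while single-cell ranges, class makeup and chain ratios of ES cells include them. The highest single ES cell values of Col1a1, Col1a2, Col3a1 and Col6a1 came from replicate 4. Those of Col4a1, Col4a2 and Col8a1 came from replicates 7, 30 and 8. Apart from these 4 ES cells, the cell type labels fitted their markers. The 7 ES cell markers summed to 27.4 CPM in MEFs and 7651 CPM in ES cells. Nanog had 0 reads in MEFs but was read in only 6 of 45 ES cells, and the other 6 markers had MEF reads. The 7 fibroblast markers that are not collagens summed to 18661 CPM in MEFs and 1392 CPM in ES cells.

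MEFs gave collagen reads at a far higher rate than ES cells. Collagens made up 1.18% of MEF gene reads (95% exact binomial interval 1.18% to 1.19%) and 0.0631% of ES cell gene reads (0.0615% to 0.0648%). Intervals cover the counting error of reads alone and treat each read as independent. The reads carry no molecular identifiers, so the intervals are too narrow for molecules and do not cover variation between cells. Single MEFs ranged from 0.292% to 3.01% with a median of 1.18%. Single ES cells ranged from 0.000687% to 0.975% with a median of 0.0429%. Every MEF lay above the median ES cell, the ES cells with the highest shares reached into the MEF range, and the highest of them was replicate 4. By plate row, the pooled share ran between 0.912% and 1.45% in MEFs and between 0.0317% and 0.137% in ES cells, so the groups did not overlap over the 8 rows. The 4 ES cells nearer the MEF profile had a median share of 0.639%, against 0.0355% in the other 41, and the pooled ES cell share without them was 0.0538%.

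Empty wells also held collagen reads. The 4 negative controls had 91 collagen reads among 12527 gene reads, 0.726% (0.585% to 0.891%), with 3, 27, 44 and 17 reads in the 4 wells. That is a mean of 22.8 reads per well, against 9451 per MEF well and 122 per ES cell well. Kept ES cell wells had a median of 70 collagen reads (1 to 712), so some held fewer than the highest empty well. MEF wells held 578 to 24750. These empty wells shared the plate columns of the MEFs. Of the 91 reads, 45 were Col1a2, 14 Col4a1 and 12 Col4a5.

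Of the 41 genes, 28 had at least 20 reads over both types and are called measured here. MEFs exceeded ES cells by 2-fold or more in 25 of them, ES cells exceeded MEFs by as much in 1, and 2 did neither. Among all 12818 genes with as many reads, the same held for 58.5% (MEFs higher) and 15.4% (ES cells higher). Of the 28 collagen values, 4 were lower bounds with 0 ES cell reads. They include Col11a2, 1 of the 2 genes in neither count. All 28 measured members had at least 20 reads in MEFs and 13 had as many in ES cells, so members mostly entered through their MEF reads and the counts are a description. The median log2 ratio (MEF over ES cell) of the 28 was 4.07, a 16.8-fold difference, while the median of the 12818 genes was 1.48. All values are relative to gene reads. Leaving ribosomal protein genes out of the totals moved every gene by −0.65, median-of-ratios scaling moved every gene by −0.46 and scaling on spike-in RNA, added to the wells, moved every gene by 4.56 on the log2 scale. Without the 4 ES cells named above, the counts were 26 and 1 and the median 4.32.

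**Figure D1:**
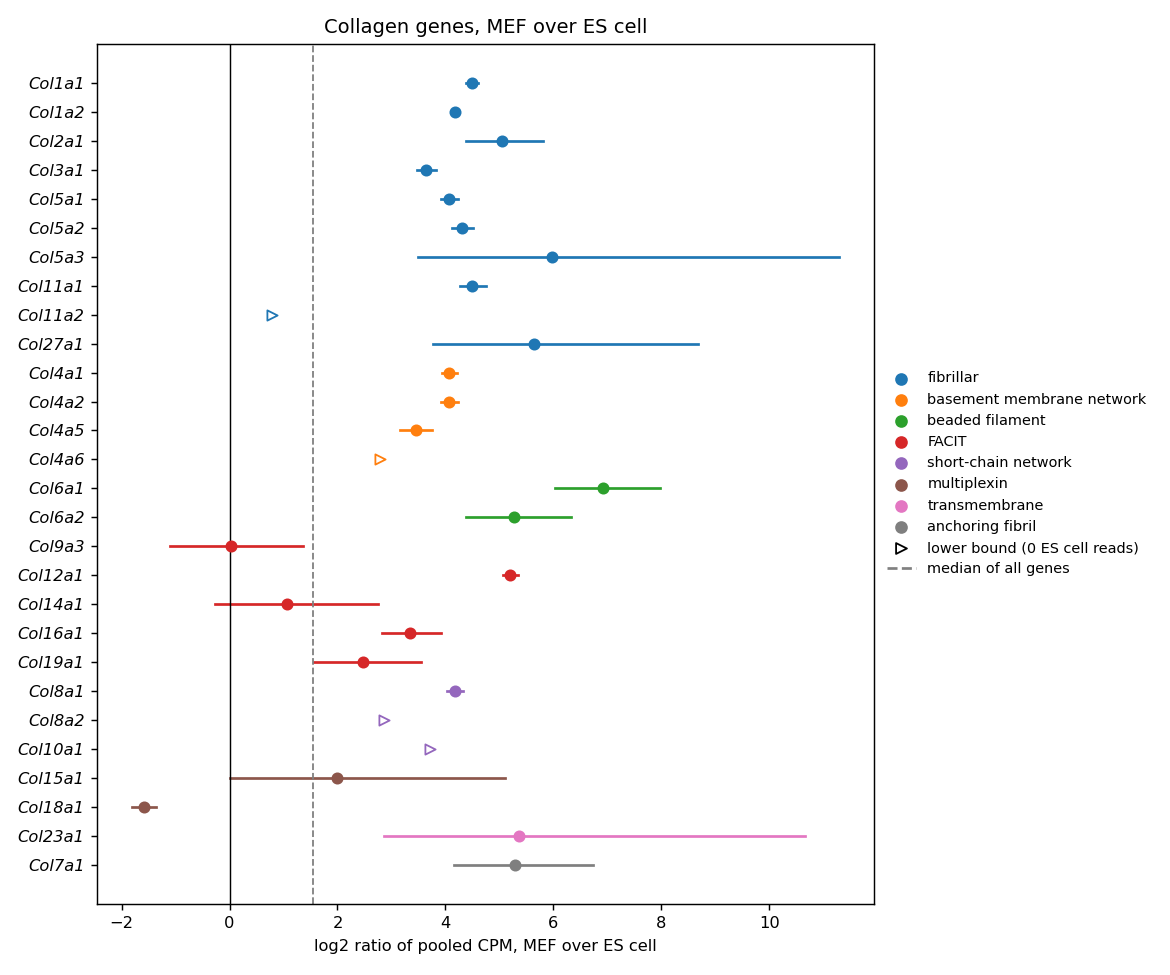
Log2 ratio of pooled CPM, MEF over ES cell, for the 28 measured collagen genes (horizontal axis), coloured by class. Lines are 95% intervals from counting error, open triangles are lower bounds for genes with 0 ES cell reads, the dashed line is the all-gene median (1.54, genes of 100 reads or more); Col18a1 is the 1 gene clearly left of 0, at −1.58.

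The 12 collagens above 100 CPM in MEFs were each higher in MEFs. Their MEF level exceeded the ES cell level by 10.9-fold (Col4a5) to 121-fold (Col6a1). Of the 12, 11 were higher in MEFs in 8 of 8 plate rows. Col6a1 could be compared in 2 rows and was higher in MEFs in both. Without the 4 ES cells named above, log2 ratios of the 12 ran from 3.82 to 9.22. The ES cell level of these genes was 0.827% to 9.15% of the MEF level, with a median of 5.52% and 8 of the 12 between 4% and 7%. The same percentage was 26.6% for the median of all 1768 genes above 100 CPM in MEFs. For the 7 other fibroblast markers it was 3.83% (Thy1) to 10.2% (Vim), with Fn1 at 6.94%. Whether reads from MEF wells make up part of the ES cell values was not tested. Across the 45 ES cells, the collagen share was higher in cells with fewer gene reads per spike-in read (Spearman −0.51, 45 cells of 1 library).

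Type I collagen, the main fibril of skin, bone and tendon, gave the most reads. Col1a2 encodes its α2 chain. It had a lowest, median and highest value of 0, 3438 and 13331 CPM in single MEFs, against 0, 90.9 and 3397 CPM in single ES cells. Most MEFs lay above nearly all ES cells, but the groups overlapped. Pooled, Col1a2 stood at 3627 CPM in MEFs and 199 CPM in ES cells (log2 ratio 4.19, 4.12 to 4.25, SD over plate rows 1.69). Col1a1, the α1 chain, had 66.3, 1662 and 7646 CPM in single MEFs and 0, 51.3 and 1526 CPM in single ES cells. All 44 MEFs held a Col1a1 read, and 35 of 45 ES cells did. Pooled, Col1a1 was at 1709 CPM in MEFs and 76.4 CPM in ES cells (log2 ratio 4.48, 4.37 to 4.60, SD over plate rows 1.41).

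Col1a2 values had a gap among MEFs that Col1a1 values did not share. Of the 44 MEFs, 8 had under 200 CPM of Col1a2 (highest 157 CPM) and the other 36 began at 567 CPM, a threshold chosen after the values were seen. In the same 8 cells Col1a1 had a median of 855 CPM (125 to 2819), against 1778 CPM (66.3 to 7646) in the other 36, so all 8 kept Col1a1 reads. Their gene reads had a median of 701521, against 866088 in the others. The window around the Col1a2 start site in RefSeq (build GRCm38.p6, chr6:4505368-4505667, plus strand) is shown because this gene gave the most reads and had this gap. Capitals mark GGGCGG and CCAAT matches on either strand, 4 in all.
Col1a2: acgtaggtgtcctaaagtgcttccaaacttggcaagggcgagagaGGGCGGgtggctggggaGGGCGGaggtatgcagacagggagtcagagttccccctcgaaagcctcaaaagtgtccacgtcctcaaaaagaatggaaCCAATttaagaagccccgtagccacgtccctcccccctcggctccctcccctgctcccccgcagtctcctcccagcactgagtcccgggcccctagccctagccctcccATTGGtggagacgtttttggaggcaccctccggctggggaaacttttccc

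Further fibrillar chains were also higher in MEFs. Col3a1, the single chain of type III fibrils in soft tissue, had 0, 234 and 4236 CPM in single MEFs, against 0, 6.17 and 599 CPM in single ES cells. Its highest cell, replicate 57, was far above the median MEF. Pooled, Col3a1 was at 394 CPM in MEFs and 31.4 CPM in ES cells (log2 ratio 3.65, 3.48 to 3.83). Col5a1 and Col5a2, chains of the type V collagen that starts fibrils, had medians of 568 and 542 CPM in single MEFs, against 23.2 and 10.7 CPM in single ES cells, and both groups overlapped. Pooled, they were at 671 and 549.5 CPM in MEFs, against 40.02 and 27.6 CPM in ES cells (log2 ratios 4.07 and 4.31). Col11a1, a type XI chain common in cartilage, was at 376 CPM in MEFs and 16.6 CPM in ES cells (log2 ratio 4.50), with a median of 138 CPM and a highest value of 3646 CPM in single MEFs, and its reads were uneven.

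The rarer fibrillar chains were read in few cells. Col2a1, the main cartilage collagen, was at 68.4 CPM in MEFs and 2.06 CPM in ES cells (log2 ratio 5.05, 4.39 to 5.81), with reads in 17 of 44 MEFs and 3 of 45 ES cells. Its SD over plate rows was 2.21, and MEFs were higher in 2 of 3 rows with reads in both. The Col2a1 log2 ratio was 3.13 from the mean of per-cell CPM, 3.30 in plate rows A to D and 7.22 in rows E to H. Sox9, the cartilage regulator, was read in 18 MEFs, of which 6 also held Col2a1, while the cartilage markers Acan and Matn1 were at 0 in both types. Col27a1, a fibrillar chain of cartilage, was at 11.4 CPM in MEFs and 0.229 CPM in ES cells on 2 ES cell reads (log2 ratio 5.63, 3.77 to 8.68). Col5a3 was at 7.23 CPM in MEFs and 0.115 CPM in ES cells (log2 ratio 5.98, 3.49 to 11.3). Its MEF reads came from 5 cells, and ES cells held 1 read. Without MEF replicate 61, with 155 of its 254 MEF reads, the log2 ratio was 4.70. Col11a2 had 21 reads in 2 MEFs and none in ES cells, so with a floor of 3 reads over the group it was at least 1.74-fold higher in MEFs, and MEF replicate 56 held 19 of the 21. Col24a1 had no read in either type.

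Type IV collagen, the network of basement membranes, was well read in MEFs. Col4a1 and Col4a2 form its most widespread trimer. Col4a1 had 0, 486 and 3671 CPM in single MEFs, against 0, 27.6 and 1281 CPM in single ES cells. Col4a2 had 0, 409 and 2784 CPM in single MEFs, against 0, 23.7 and 1650 CPM in single ES cells. Both groups started at 0 and overlapped, with MEF medians well above ES cell medians. Pooled, Col4a1 was at 849 CPM in MEFs and 50.5 CPM in ES cells, and Col4a2 at 679 CPM in MEFs and 40.4 CPM in ES cells. Their log2 ratios were both 4.07, with SDs over plate rows of 1.20 and 1.34.

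The genes of this pair face each other. In RefSeq (GRCm38.p6) their start sites lie 21 bases apart on opposite strands of chromosome 8 and the transcripts overlap at their 5′ ends. The windows, 250 bases before to 50 after each start site, share 78 bases. They are printed because this pair had the highest correlation of any 2 abundant collagens over MEFs. Col4a1 is at chr8:11312777-11313076 on the minus strand and Col4a2 at chr8:11312555-11312854 on the plus strand, and capitals mark the shared bases.
Col4a1: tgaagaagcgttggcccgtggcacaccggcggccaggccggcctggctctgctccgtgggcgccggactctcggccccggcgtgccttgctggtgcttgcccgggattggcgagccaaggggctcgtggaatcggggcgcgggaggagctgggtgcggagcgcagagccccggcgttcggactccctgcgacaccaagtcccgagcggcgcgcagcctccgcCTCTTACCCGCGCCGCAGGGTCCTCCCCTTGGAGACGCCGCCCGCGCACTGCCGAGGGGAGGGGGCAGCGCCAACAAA
Col4a2: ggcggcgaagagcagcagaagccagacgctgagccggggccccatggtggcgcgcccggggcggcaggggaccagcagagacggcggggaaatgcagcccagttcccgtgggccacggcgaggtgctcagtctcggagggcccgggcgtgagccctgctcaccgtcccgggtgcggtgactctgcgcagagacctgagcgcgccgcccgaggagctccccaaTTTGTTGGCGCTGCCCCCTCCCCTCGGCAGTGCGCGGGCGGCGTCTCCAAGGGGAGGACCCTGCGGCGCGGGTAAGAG

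Col4a5 and Col4a6, chains of another type IV trimer, also face each other, on the X chromosome, with start sites 1343 bases apart. Col4a5 was at 128 CPM in MEFs and 11.7 CPM in ES cells (log2 ratio 3.45, SD over plate rows 1.51), with reads in 40 of 44 MEFs. Col4a6 was at 2.39 CPM in MEFs with reads in 5 of 44, and had no read in ES cells, at least 6.95-fold higher in MEFs, with 51 of its 84 reads in MEF replicate 87, without which the bound was a log2 ratio of 1.495. Their reads differed 53.5-fold in MEFs, and all 5 MEFs with Col4a6 also held Col4a5. ES cells held 102 Col4a5 reads, 77 of them outside the 4 ES cells above, and without those 4 the log2 ratio was 3.84. Negative controls held 12 Col4a5 reads, all in replicate 94. Col4a3 had 2 MEF and 3 ES cell reads, and Col4a4 had 2 MEF reads. The windows are shown for contrast with the pair above: Col4a5 at chrX:141475169-141475468 on the plus strand and Col4a6 at chrX:141474027-141474326 on the minus strand, with GGGCGG and CCAAT matches on either strand in capitals.
Col4a5: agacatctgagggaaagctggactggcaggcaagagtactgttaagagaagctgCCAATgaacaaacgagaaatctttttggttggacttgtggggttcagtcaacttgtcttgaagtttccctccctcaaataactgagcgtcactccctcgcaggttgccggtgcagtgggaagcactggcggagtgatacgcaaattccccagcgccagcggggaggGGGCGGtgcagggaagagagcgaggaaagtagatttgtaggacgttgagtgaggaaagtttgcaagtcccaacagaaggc
Col4a6: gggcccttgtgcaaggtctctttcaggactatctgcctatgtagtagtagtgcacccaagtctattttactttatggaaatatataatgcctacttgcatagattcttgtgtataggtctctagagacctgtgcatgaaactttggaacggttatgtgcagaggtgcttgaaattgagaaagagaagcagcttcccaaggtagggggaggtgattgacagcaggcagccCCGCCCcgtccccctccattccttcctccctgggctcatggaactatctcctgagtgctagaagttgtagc

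Promoter windows were found in RefSeq for 33 of the 41 genes, 36 windows in all. Col1a1, Col12a1, Col5a2 and Col2a1 were among the genes without a window. Genes with no read here, such as Col9a1 and Col9a2, were counted. GGGCGG, the GC box, read on both strands, was in 22 of the 36 windows (61.1%) and in 35.7% of all 32851 promoter windows of the same length. CCAAT was in 36.1% of collagen windows and 37.4% of all windows, and TATAAA in 13.9% and 13.6%. The letter sets do not overlap one another, and a match is a description of the window.

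The beaded filament chains Col6a1 and Col6a2 had few ES cell reads. Col6a1 had 0, 70.9 and 602 CPM in single MEFs, against 0, 0 and 145 CPM in single ES cells. It was read in 30 of 44 MEFs and 2 of 45 ES cells. The groups overlapped, and the highest ES cell, replicate 4, lay above the median MEF. Pooled, Col6a1 was at 138.7 CPM in MEFs and 1.15 CPM in ES cells (log2 ratio 6.92, 6.04 to 7.98). Replicate 4 held 8 of its 10 ES cell reads, and without the 4 ES cells 2 reads were left and the log2 ratio was 9.22 (7.37 to 12.3). Col6a2 was at 44.3 CPM in MEFs and 1.15 CPM in ES cells (log2 ratio 5.27, 4.39 to 6.34). It was read in 20 MEFs and 3 ES cells. ES cell replicate 21 held 7 of its 10 ES cell reads, and without that cell the log2 ratio was 6.93 (5.39 to 9.21). Col6a4 and Col6a6 had 7 and 1 reads, all in MEFs.

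FACITs were led by Col12a1, which coats fibrils in tendon and ligament. It had 9.27, 752 and 8643 CPM in single MEFs, against 0, 10.7 and 1259 CPM in single ES cells. All 44 MEFs held a read and 26 of 45 ES cells did. Pooled, Col12a1 was at 1670 CPM in MEFs and 45.3 CPM in ES cells (log2 ratio 5.20, 5.06 to 5.35, SD over plate rows 1.63), behind Col1a2 and Col1a1 in reads. Col16a1 was at 34.9 CPM in MEFs and 3.44 CPM in ES cells (log2 ratio 3.34, 2.82 to 3.92), and without ES cell replicate 22, with 13 of its 30 ES cell reads, the log2 ratio was 4.11. Its SD over plate rows was 1.70, and MEFs were higher in 2 of 3 rows with reads in both. The Col16a1 log2 ratio was 4.11 in plate rows A to D and 1.45 in rows E to H. Col19a1 was at 6.37 CPM in MEFs and 1.15 CPM in ES cells (log2 ratio 2.47, 1.57 to 3.55). Without MEF replicate 89, which held 95 of its 224 MEF reads, its log2 ratio was 1.72, and without ES cell replicate 22, which held 7 of 10 ES cell reads, it was 4.16 (2.60 to 6.45). Col14a1 had 42 MEF reads and 5 ES cell reads, all 5 in 1 ES cell (log2 ratio 1.06, −0.28 to 2.75), and without MEF replicate 81, which held 23, its log2 ratio was −0.04. Col9a3, a cartilage FACIT chain, had 33 reads in 1 MEF and 8 in ES cell replicate 4, with none in any other cell. Col9a1, Col9a2, Col20a1 and Col22a1 had no read.

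Col8a1, a short-chain network collagen of vessel and cornea matrix, was the fifth by reads in MEFs. It had 0, 614 and 3434 CPM in single MEFs, against 0, 20.7 and 737 CPM in single ES cells, and was at 808 CPM in MEFs and 44.7 CPM in ES cells when pooled (log2 ratio 4.18, 4.03 to 4.32). Col8a2 had 88 reads in 4 MEFs and none in ES cells, at least 7.28-fold higher in MEFs. Col10a1, the collagen of hypertrophic cartilage, had 159 reads in 4 MEFs and none in ES cells, at least 13.1-fold higher in MEFs, and without MEF replicate 71, with 91 of them, the bound was a log2 ratio of 2.52. Of these 4 MEFs, 3 held Col2a1. Col7a1, the anchoring fibril of skin, was at 26.8 CPM in MEFs and 0.688 CPM in ES cells (log2 ratio 5.28, 4.16 to 6.73). It was read in 21 MEFs, and 5 of its 6 ES cell reads were in replicate 4. Without the 4 ES cells 1 read was left and the log2 ratio was 7.85 (5.37 to 13.2). Among transmembrane collagens, Col23a1 had 165 reads, 135 of them in MEF replicate 75, against 1 ES cell read (log2 ratio 5.36, 2.86 to 10.7, and 2.92 without that cell), and Col13a1, Col17a1 and Col25a1 had no read. Col28a1 also had none. Col6a3, Col6a5, Col21a1 and Col26a1 had no row by this rule and were not analysed here.

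Col18a1, a multiplexin whose C-terminal piece is endostatin, was the 1 exception. Its 416 MEF reads came from 13 of 44 cells and its 309 ES cell reads from 15 of 45 cells. It had 0, 0 and 393 CPM in single MEFs, against 0, 0 and 296 CPM in single ES cells, so the groups overlapped throughout. Pooled, Col18a1 was at 11.8 CPM in MEFs and 35.4 CPM in ES cells (log2 ratio −1.58, −1.80 to −1.37). The SD over plate rows was 3.34, larger than the ratio, and MEFs were higher in 2 of 6 rows with reads in both. No read of it was in a negative control and none in the 4 ES cells above. With every cell thinned to 20000 gene reads, 6 of 44 MEFs and 7 of 42 ES cells held a read. Spike-in scaling turned the sign, to 2.98. Its relative Col15a1 had 32 reads in 1 MEF and 2 in 1 ES cell (log2 ratio 1.99, 0.02 to 5.10).

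**Figure D2:**
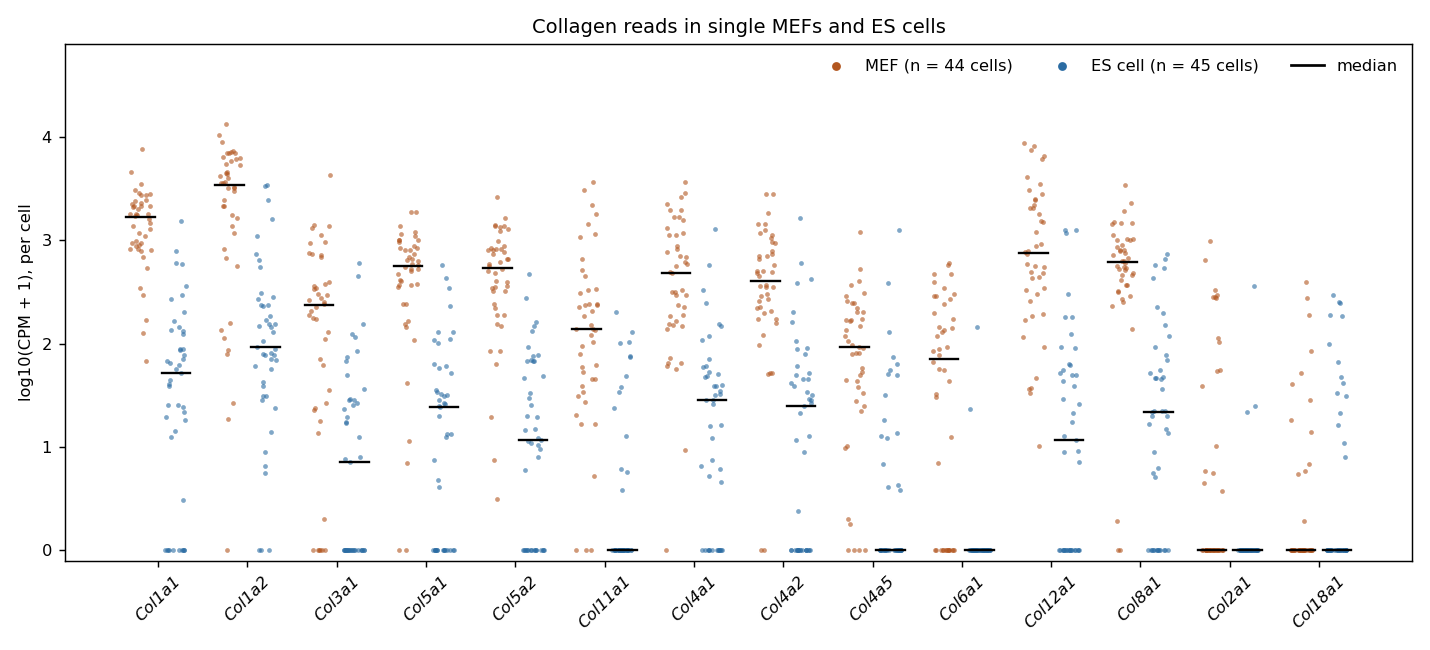
CPM of single cells on a log10 scale with 1 CPM added, for the 12 collagens above 100 CPM in MEFs and for Col2a1 and Col18a1; MEFs (44) are left of ES cells (45), 1 point per cell, black bars are medians. MEF medians exceed ES cell medians in the 12, and both medians of Col2a1 and Col18a1 lie at 0.

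The number of collagen genes read per cell also differed. MEFs held a median of 15 collagen genes (5 to 19) and ES cells a median of 7 (1 to 15), at unequal depth. Thinned to 20000 gene reads, MEFs held a median of 12 (4 to 16) and ES cells a median of 4 (0 to 14), with 3 ES cells left out as too shallow and no MEF. For background, Dppa5a, an ES cell marker, was read in 42 of 44 MEFs and in all 45 ES cells. Pooled, it was at 17.4 CPM in MEFs and 4816 CPM in ES cells.

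Class makeup of the collagen reads was similar in both types except for a few classes. The ES cell values include the ES cells nearer the MEF profile. Whether reads from MEF wells make up part of this ES cell makeup was not tested. Fibrillar chains made up 62.7% of MEF and 62.4% of ES cell collagen reads. Type IV chains made up 14.02% in MEFs and 16.3% in ES cells, FACITs 14.5% in MEFs and 8.14% in ES cells, and short-chain networks 6.89% in MEFs and 7.08% in ES cells. Beaded filament chains made up 1.55% in MEFs and 0.363% in ES cells, and multiplexins 0.108% in MEFs and 5.65% in ES cells. In single MEFs the fibrillar share ran from 28.4% to 96.1% with a median of 69.3%, and the type IV share from 0% to 44.6% with a median of 10.7%. Col1a2 gave the most collagen reads in 26 of 44 MEFs, Col1a1 in 7, Col12a1 in 5, Col4a1 and Col4a2 in 2 each, and Col11a1 and Col5a2 in 1 each.

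**Figure D3:**
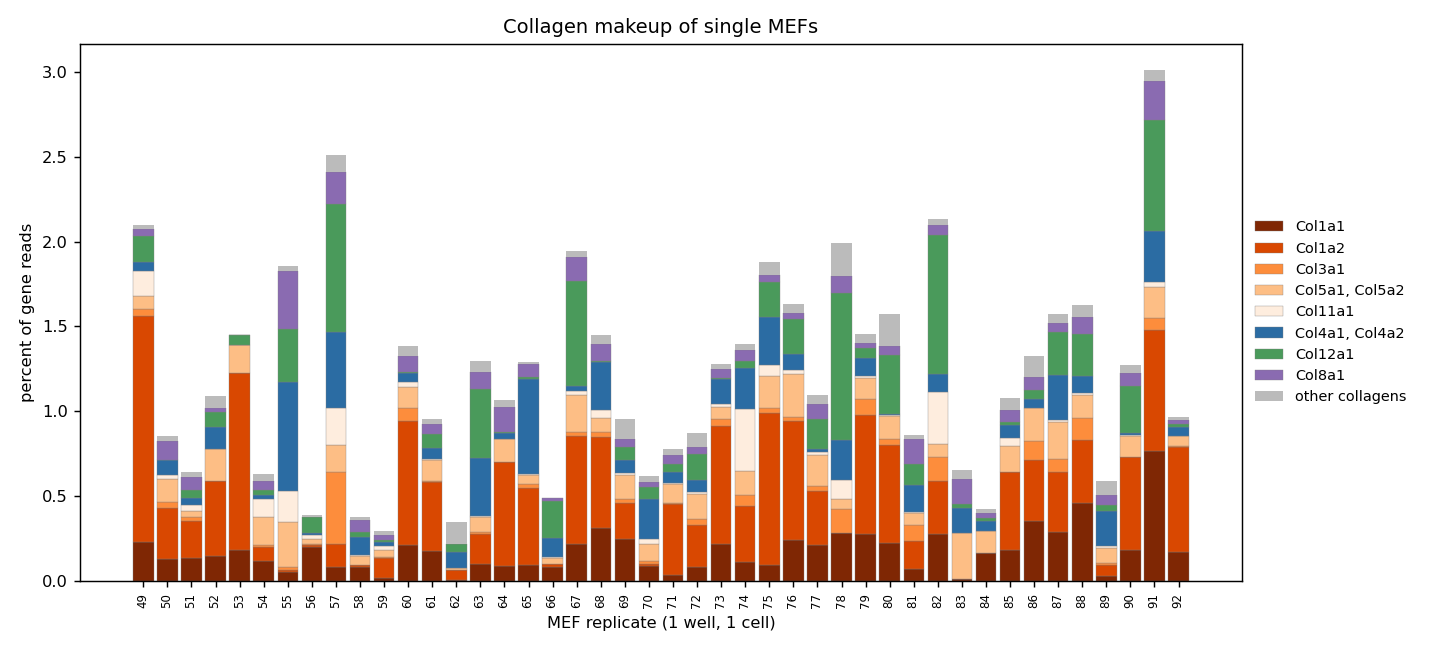
Percent of gene reads from each collagen in the 44 MEFs (1 bar per cell, by replicate number, stacked by gene). Totals run from 0.292% to 3.01%, and single cells are led by different genes.

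Chain ratios were taken in MEFs for chains that share a trimer or a fibril. Counts of 5′ reads need not grow with transcript length, so ratios are given as read and also per base of transcript. Type I collagen joins 2 α1 chains to 1 α2 chain. Col1a2 had 2.12 times the reads of Col1a1 (2.10 to 2.14, per length 1.94), with a plate row range of 0.498 to 4.18 in which the order turned, and was the higher of the pair in 32 of 44 MEFs. In the 43 single MEFs with both chains the ratio had a median of 2.32 and ran from 0.00900 to 12.04. The other MEF held Col1a1 alone. In ES cells the pooled ratio was 2.61. ES cell ratios include the ES cells nearer the MEF profile, and whether reads from MEF wells add to these ratios was not tested. Col4a2 over Col4a1 was 0.800 in MEFs (0.787 to 0.814, per length 0.824) and 0.800 in ES cells (0.693 to 0.922). In the 42 single MEFs with both chains it had a median of 0.850 and a range of 0.103 to 17.03. Of the other MEFs, 1 held Col4a1 alone and 1 held neither. The plate row range of Col4a2 over Col4a1, 0.470 to 3.83, also spanned 1. The common type IV trimer also holds 2 α1 chains and 1 α2 chain.

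Col5a2 over Col5a1 was 0.818 by reads and 1.04 per length, so the order of this pair depends on the scale. Its plate row range was 0.366 to 1.27. Col3a1 over Col1a1 was 0.231 (0.0824 to 0.935 by plate row), with Col1a1 the higher in 42 of 44 MEFs. Col6a2 over Col6a1 was 0.319 (0.0731 to 0.560 by plate row), and 16 MEFs held both chains, 14 only Col6a1 and 4 only Col6a2. Col8a2 over Col8a1 was 0.00310. Per kilobase of transcript, Col1a2 and Col1a1 stayed first and second of the 12 abundant collagens, at 705 and 364 CPM per kb, and Col8a1 was the third, at 158.

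Collagen chains varied among MEFs about as much as other genes did. The coefficient of variation (SD over mean of per-cell CPM) of the 12 abundant collagens had a median of 1.06, against 0.976 for all 1768 genes above 100 CPM. Col5a1 had the lowest, 0.734, followed by Col1a1 at 0.766, and Col11a1 had the highest, 1.78, after Col3a1 at 1.63. Only 10.4% of the 1768 genes varied more than Col11a1, and 76.9% varied more than Col5a1. The 4 highest MEFs held 53.9% of the summed per-cell CPM of Col11a1 and 23.3% of that of Col5a1.

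Over the 44 MEFs, all of 1 library, collagen pairs were correlated on log2(CPM + 10) as a description. The 66 pairs of the 12 abundant collagens had a median Pearson r of 0.16, and 3 pairs (4.55%) were above 0.5, against a median of 0.06 and 0.647% above 0.5 for all pairs of the 1768 genes. Col4a1 and Col4a2 had the highest r, 0.72 (Spearman 0.69), and kept 0.68 with cells thinned to 20000 reads. Col3a1 and Col11a1 followed at 0.61 (Spearman 0.53, and r of 0.58 when thinned). Col4a1 and Col8a1 were at 0.52, but with a Spearman of 0.31 and an r of 0.38 when thinned. Col1a1 and Col1a2 were at 0.43, eighth of the 66, with 0.60 in plate rows A to D and 0.22 in rows E to H. Col5a1 and Col5a2, which share a trimer, were at −0.14. Summed fibrillar and summed type IV reads had r of −0.06, so cells high in one class were not consistently high in the other.

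**Figure D4:**
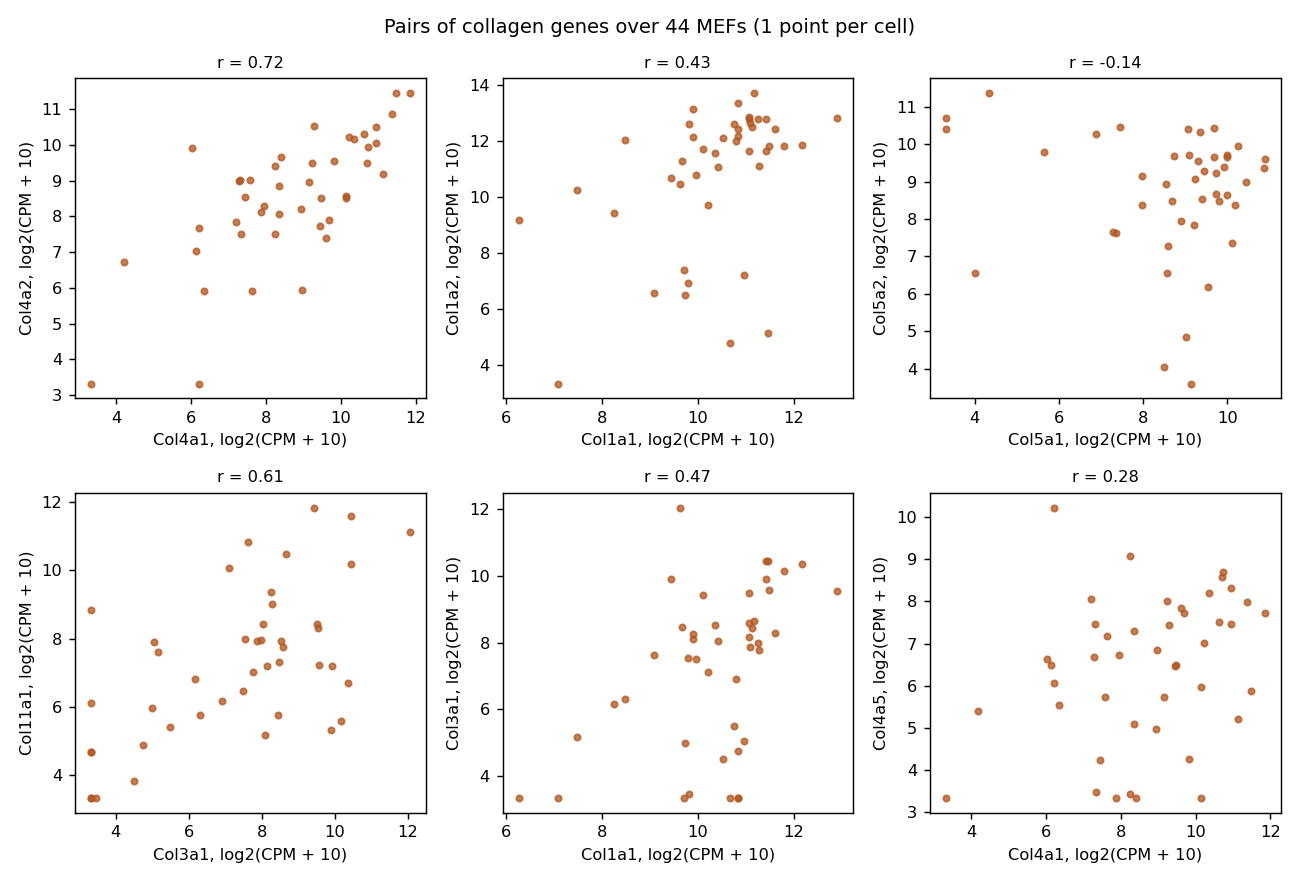
Pairs of collagen genes in the 44 MEFs, log2(CPM + 10) on both axes, 1 point per cell, with Pearson r above each panel. The Col4a1 and Col4a2 points lie along a line (0.72), while Col5a1 and Col5a2 show no common rise (−0.14).

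**Figure D5:**
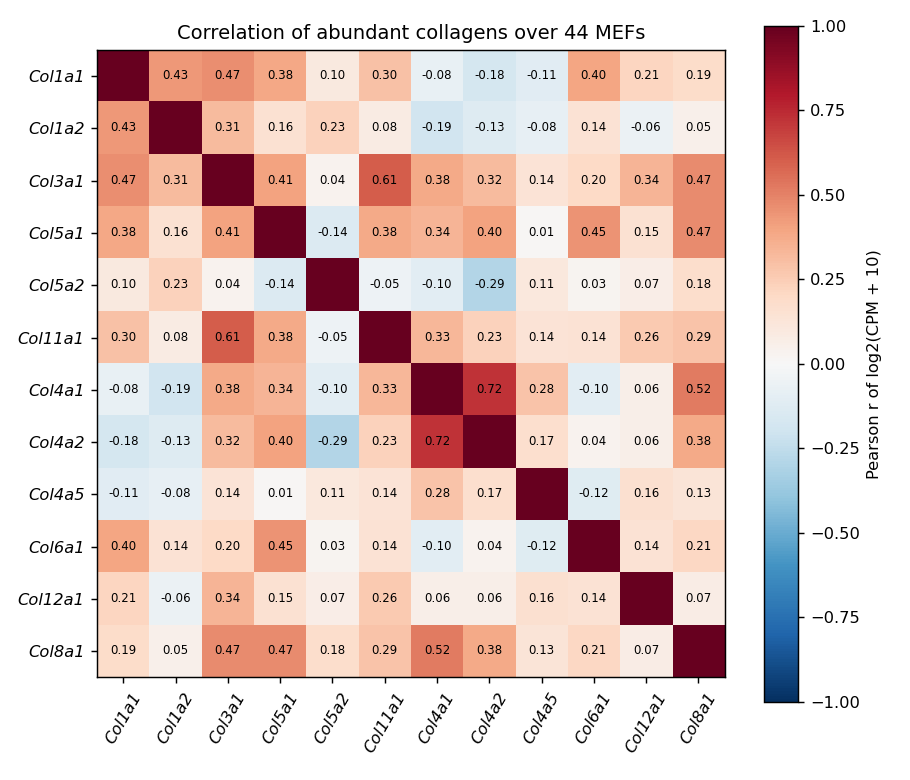
Pearson r of log2(CPM + 10) over 44 MEFs for each pair of the 12 abundant collagens. The highest value is between Col4a1 and Col4a2 (0.72) and the lowest between Col5a2 and Col4a2 (−0.29).

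Genes that fold, clip, crosslink and bind collagen were read from lists, and their counts stand beside the 58.5% of all 12818 genes at least 2-fold higher in MEFs and the 15.4% so in ES cells. Of 16 measured genes of collagen folding and hydroxylation, 13 were at least 2-fold higher in MEFs, 1 (Leprel1) in ES cells and 2 in neither. The chaperone Serpinh1 was at 1239 CPM in MEFs and 96.3 CPM in ES cells, and the prolyl hydroxylase subunit P4hb at 847 CPM in MEFs and 122 CPM in ES cells. Of 12 measured genes of procollagen cleavage and crosslinking, 9 passed that fold in MEFs, against the 58.5% of all genes, 1 (Pcolce2) in ES cells and 2 in neither, with the crosslinking enzyme Loxl2 at 1145 CPM in MEFs and 76.1 CPM in ES cells and Lox at 985 CPM in MEFs and 48.0 CPM in ES cells. All 7 measured receptors and uptake genes were higher in MEFs, among them the integrin chain Itgb1 at 2244 CPM in MEFs and 149 CPM in ES cells and the collagen uptake receptor Mrc2 at 239 CPM in MEFs and 10.5 CPM in ES cells.

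All 8 measured fibril-binding genes were higher in MEFs, led by Fn1 at 14529 CPM in MEFs and 1009 CPM in ES cells and Thbs1 at 14041 CPM in MEFs and 664 CPM in ES cells. Of 7 contractile genes, 7 were higher in MEFs, with Tpm1 at 5473 CPM in MEFs and 469 CPM in ES cells and Acta2 at 2092 CPM in MEFs and 97.0 CPM in ES cells. Of 9 mitosis genes, none passed 2-fold towards MEFs and 5 did towards ES cells, with Top2a at 106 CPM in MEFs and 282 CPM in ES cells and Cdk1, in neither count, at 68.4 CPM in MEFs and 48.0 CPM in ES cells. Over MEFs, the summed collagen level had r of 0.39 with the cleavage and crosslinking list and 0.30 with the fibril-binding list (44 cells of 1 library). It had r of 0.25 with the contractile list, 0.23 with the folding list, 0.10 with the receptor list and −0.20 with the mitosis list.

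Markers of other collagen-making cells were checked beside these values. Of 4 cartilage markers that are not collagens, 2 had a MEF read, with a summed level of 0 to 3090 CPM in MEFs and 0 to 147 CPM in ES cells. Of 6 bone markers, 3 had a MEF read, with a summed level of 0 to 163 CPM in MEFs and 0 to 3.95 CPM in ES cells. Sp7, Bglap2 and Ibsp were at 0 in both types. Runx2 was at 23.7 CPM in MEFs, with reads in 15 of them, and Bglap and Dmp1 had 30 and 1 MEF reads. Endothelial markers Pecam1 and Cdh5 were at 0 in both types, but the others on that list were read. Flt1 was at 15.5 CPM in MEFs (12 cells with a read) and 1.03 CPM in ES cells. Kdr was at 5.69 CPM in MEFs (4 cells) and 0 in ES cells. Egfl7 was at 5.23 CPM in MEFs and 37.4 CPM in ES cells, and Tek at 2.16 CPM in MEFs and 1.26 CPM in ES cells. The endoderm markers Gata4, Sox17, Foxa2 and Afp were at 0 in both types. The other 3 of the 7 endoderm markers were read in both types. Pooled, Dab2 was at 153 CPM in MEFs and 4.13 CPM in ES cells. Gata6 was at 21.1 CPM in MEFs (17 cells with a read) and 0.229 CPM in ES cells (1 cell). Lama1 was at 0.0853 CPM in MEFs (1 cell) and 20.99 CPM in ES cells (10 cells). The summed level of the 7 endoderm markers reached 2262 CPM in a MEF and 319 CPM in an ES cell. Of the endothelial list 4 of 6 genes had a MEF read, of macrophage and blood 3 of 6, of muscle 2 of 5, of keratinocyte 2 of 4 and of neural and Schwann 5 of 5. The highest summed levels in a MEF were 127, 75.3, 208, 13.4 and 3808 CPM for these 5 lists, and in an ES cell 451, 12.4, 189, 37.03 and 327 CPM. All 18 MEFs with Sox9 also held Col11a1, which was read in 41 of 44. The part of Sox9-positive cells in the Col2a1 and Col11a1 reads was not tested.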

How the data were processed

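Single-cell tagged reverse transcription reads from 1 plate of MEFs, ES cells and negative control wells were analysed from the count table. The authors deposited raw read counts per transcript, spike-in and repeat type for every well without normalization, as maximum exon hits that include alternative mappings, per the file headers. Barcodes, leading Gs and trailing As had been removed and low-quality or short reads dropped, per the file headers. The submitters' processing notes name Bowtie; version, build and annotation are not given in the sources used here. The deposited positions of the collagen rows did not match GRCm38, so none is printed. Further deposited columns, used as they stand, gave uniquely mapped reads over the plate and transcript length. No measured collagen had under 99% unique reads.

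Members were matched by symbol. The members and gene lists were chosen with earlier results of these data known. Wells with at least 10000 gene reads were kept. CPM is the summed count of a type over its summed gene reads, the log2 ratio is MEF over ES cell, and for a sum of 0 a group floor of 3 reads was used. Intervals are exact (Poisson, binomial, 95%). The labels name no separate cultures, so no test was run. For some genes, differences were set against the SD of the log2 ratio over up to 8 plate rows, which hold different cells. Collagens with at least 100 reads were named with values and the others with read sums or by count, to which ratios or bounds were added for measured genes under 100 reads, and from each other list the 2 measured members with the highest MEF CPM, with further members and markers named after their values were seen. The pipeline was tested on simulated data. Python 3.11.15, numpy 2.4.6, pandas 2.3.3 and scipy 1.17.1 were used.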

Additional observations from a re-analysis of the deposited data

How the results depend on the processing

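The 12 collagens above 100 CPM were higher in MEFs under each scaling, filter, thinning and set of plate rows tried, with a lowest log2 ratio of 1.64 (Col4a5, mean of per-cell CPM). The median of the 28 measured genes was 4.07, against 8.63 with spike-in scaling and 2.03 with 10 CPM added. Col18a1 was the 1 gene counted as higher in ES cells. That count was 0 with the mean of per-cell CPM, with spike-in scaling, when thinned to 20000 reads and in rows E to H, and 2 in rows A to D, where Col9a3 joined it. The ES cell collagen share was 0.0631%, against 0.120% as a mean of per-cell shares and 0.116% without ribosomal protein genes in the totals. The Col18a1 log2 ratio turned to 2.98 with spike-in scaling. No value was possible for 8 genes when thinned and 3 in rows A to D, where reads were at the floor. Col5a2 over Col5a1 turned to 1.04 per length and 1.16 when thinned, and their correlation to 0.0013 when thinned and 0.0162 in MEFs with both chains. Col8a2 over Col8a1 was 0.0328 as a median of per-cell ratios and 0.0102 when thinned. That median covers only the 4 MEFs with both chains and leaves out 38 MEFs with Col8a1 alone. The median share of ES cells with a read of the 12 was 63.3%, against 38.1% when thinned. The Col1a1 and Col1a2 correlation was 0.598 in rows A to D and 0.224 in rows E to H, and that of Col4a1 and Col4a2 0.645 in MEFs with both chains. The cause of these moves was not tested. Alternatives chosen after seeing the data were leaving out ES cell replicates 4, 7, 8 and 30, leaving out ES cells with more spike-in than gene reads, keeping MEFs with both chains, and leaving out the cell with the most reads of a gene, which for Col14a1 gave −0.0399 without MEF replicate 81 and a lower bound of 1.75 without ES cell replicate 20. Depth limits the genes with few ES cell reads, and with 1 culture per type no value here covers variation between cultures. No paired analysis was possible because the cell types share no replicate number and no test was run.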
